A study of Mus musculus with 2 samples.

Results

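The genes described here encode the enzymes that cut the extracellular matrix and the proteins that hold those enzymes in check: the matrix metalloproteinases (MMPs), the ADAMTS proteases, the tissue inhibitors of metalloproteinases (TIMPs) and the membrane-anchored inhibitor Reck. Members were chosen by symbol alone, as every Mmp or Adamts gene with a plain number, Timp1 to Timp4 and Reck, which gave 47 of the 23227 symbols in the authors' deposited table. They were compared between an immortalised monoclonal Dicer -/- line (KO) and an immortalised monoclonal Dicer f/f line (WT) of adult murine mesenchymal stem cells (MSCs), which other labels of the same samples call fibroblasts. Both lines grew in Alpha-MEM with 10% fetal bovine serum and were lysed below confluence, and polyA RNA was sequenced as paired reads of 50 bases. The series asked how mature messenger RNA differs with and without Dicer, the enzyme that cuts microRNA precursors into mature microRNAs. Each genotype is represented by 1 clone, so the loss of Dicer and the history of the clone cannot be told apart.

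MMPs are zinc-dependent enzymes made as inactive proenzymes, and between them they cut collagens, gelatin, proteoglycans and many cell surface proteins. ADAMTS proteases are secreted relatives that bind the matrix. Some cut large proteoglycans such as aggrecan and versican, some trim procollagen so that fibrils can form, and others act on microfibrils. TIMPs bind the active site of these enzymes, and Timp3 also inhibits several ADAMTS and ADAM proteases. In MSCs and fibroblasts this balance sets how collagen is laid down, remodelled and crossed by migrating cells.

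The labels list 1 sample per genotype, yet each deposited genotype mean was an exact sum over 2 libraries, whose reads could be recovered. The KO libraries held 15718369 and 14969532 reads in genes, and the WT libraries held 15369250 and 14135422; they are called the deeper and the shallower library of each genotype. Values are normalised reads, that is reads divided by the size factor of the library, and a mean is the authors' deposited mean over both libraries. Nothing in the labels says whether the libraries of a genotype came from separate cultures, so every p-value measures only the spread between libraries, which may be technical. Which deposited column is KO was read from the order of names in the title of the comparison, and every direction rests on that reading. Dicer1 itself had 573 and 557 normalised reads in the KO libraries, against 804 and 943 in the WT libraries; gene totals include reads outside the deleted exons, so they check no label. Of 16 MSC and fibroblast markers, 15 reached 20 normalised reads, while Thy1, a classic surface marker of these cells, had no reads in any of the 4 libraries. Of markers of other cell types, no endothelial marker of 5, 1 of 6 epithelial markers (Krt8, with Epcam at 0), 1 of 3 osteoclast markers (Ctsk, with Calcr at 0) and 2 of 9 macrophage and neutrophil markers (Cd68 and Cd14) reached 20. The macrophage and neutrophil list summed to 239 and 221.9 in the KO libraries, against 156 and 185 in the WT libraries. Most of these sums was Cd14, at 191 and 168 in the KO libraries, against 122 and 123 in the WT libraries. Of the list's markers under 20, Csf1r (26 reads in KO and 14 in WT), Lyz2 (15 and 9) and Ptprc (3 and 1) had more reads in KO. Mpo (1 and 10), Itgam and Emr1 (0 and 2 each) and Elane (0 and 1) had fewer.

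Among the matrix proteases, Mmp13 and Adamts14 were at least 2-fold higher in the KO line and Mmp2, Mmp16, Adamts1 and 7 others at least 2-fold lower, and no inhibitor was called. Genes averaging 20 or more normalised reads over the lines were tested, which 25 of the 47 members and 11710 genes in all reached. It was called when the ratio of KO over WT was at least 2 or at most 0.5 and the 95% exact (Clopper-Pearson) interval of the ratio, which covers counting error only, excluded 1. By this rule 2 tested members (8%) were higher in KO, against 8.92% of all tested genes, and 10 (40.0%) were lower, against 8.56%, or 48.0% against 17.5% in either direction. The higher members were Mmp13 and Adamts14. The lower ones were Mmp2, Mmp15, Mmp16, Mmp17, Mmp19, Adamts1, Adamts5, Adamts7, Adamts9 and Adamts10. Of these, Mmp15, Mmp16, Mmp17 and Adamts7 reached the minimum in WT alone, so they had to lie lower in KO once tested. The other 6 lower members reached it in both lines, and every count of lower members given here, with its share, is a description of the tested members only. Omitting the deeper WT library left 4 members higher and 5 lower, so the balance of the counts rested on that library. The median log2 ratio of the tested members was -0.13, beside -0.01 over all tested genes, and its SD over the 4 pairings of a KO with a WT library was 0.413. In bulk RNA, fewer cells of a type and less message per cell cannot be told apart.

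**Figure D1:**
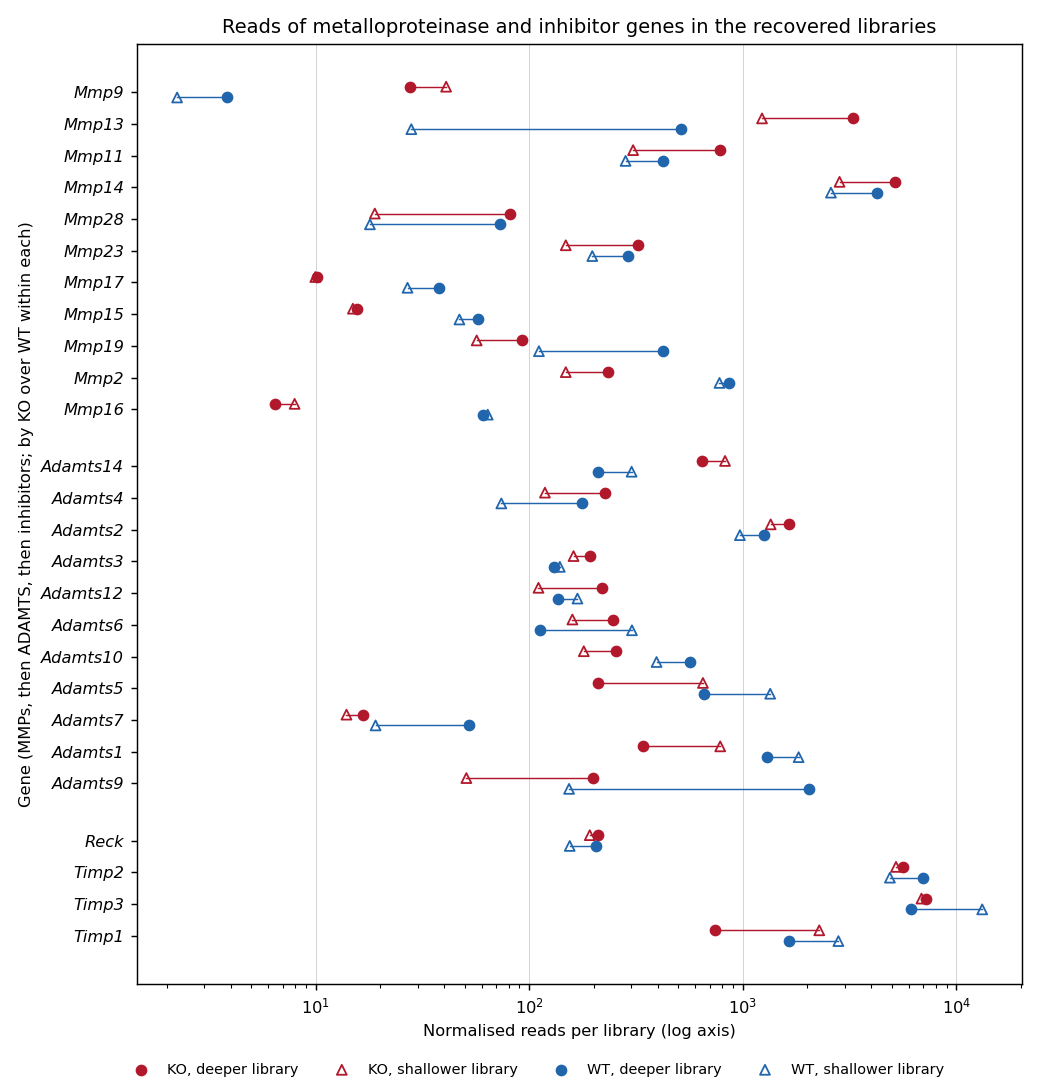
Normalised reads (log axis) of the 25 tested members and Mmp9 in each of the 4 libraries, with the KO libraries drawn above the WT libraries of each gene. Both KO points of Mmp2 (233 and 148) lie left of both WT points (861 and 778), while Adamts9 has WT points at 2049 and 154.

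In the authors' deposited table, 5 of the tested members passed an adjusted p of 0.1: Adamts14 rose (background 5.56% of tested genes higher), and Adamts1, Adamts10, Mmp2 and Mmp16 fell (background 5.34% lower). Mmp9 also passed that threshold, at a mean under the minimum of 20. A limma test across the 4 recovered libraries with Benjamini-Hochberg adjustment called Adamts14 higher and Mmp2 and Mmp16 lower at 0.05, against a background of 4.61% higher and 4.14% lower. At an unadjusted limma p under 0.05, 2 tested members were higher (background 14.9%) and 6 lower (background 14.2%). The KO pair of libraries was entirely above the WT pair for 4 tested members (background 30.4%) and entirely below it for 9 (background 28.8%). These 9 were the 10 lower members without Adamts9, and so again hold the 4 that reached the minimum in WT alone. The 6 lower at an unadjusted limma p hold Mmp15, Mmp16 and Mmp17 of these. Mmp16 is also counted as lower by the authors' adjusted p and by limma with adjustment, though it had to lie lower once tested.

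Mmp13, the main interstitial collagenase of mouse connective tissue, had the highest ratio of all tested members. It had 3288 and 1231 normalised reads in the deeper and shallower KO libraries, against 515 and 28.0 in the deeper and shallower WT libraries. The KO libraries were both higher than the WT libraries, but the WT libraries were themselves 18.4-fold apart and the KO libraries 2.67-fold. The means were 2260 in KO and 271 in WT, a ratio of 8.33 (95% counting interval 7.63 to 9.10). The authors' deposited table gives an adjusted p of 0.239, and limma gave 0.149 with Benjamini-Hochberg adjustment. The size of the ratio rested on the library: it was 80.6 without the deeper WT library, 4.39 without the shallower WT library and 4.54 when the deeper KO library was omitted. The direction held within both pairs of like rank, at 6.39 for the deeper and 43.9 for the shallower libraries.

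Mmp13 sits on chromosome 9 in a cluster of MMP genes that in mouse also holds Mmp12, Mmp1b, Mmp3, Mmp1a, Mmp10, Mmp8, Mmp27, Mmp20 and Mmp7, in this order in RefSeq. The cluster includes the other interstitial collagenases (Mmp1a, Mmp1b and Mmp8), the stromelysins Mmp3 and Mmp10, the macrophage elastase Mmp12 and the matrilysin Mmp7. Mmp13 was transcribed to 4812 reads in KO and 559 in WT, while no neighbour had more than 4 reads in either genotype. Mmp3 had 4 reads in KO and 0 in WT, Mmp12 had 3 and 0, and Mmp10 had 1 and 0. Mmp1a, Mmp1b, Mmp7, Mmp8, Mmp20 and Mmp27 had no reads in any library, where a count of 0 allows up to 3 reads, equal to between 2.76 and 3.36 normalised reads per library.

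The AP-1 motif is known from these genes' promoters as the element through which Jun and Fos proteins and phorbol esters act. It was searched as TGANTCA, which reads the same on both strands, in the 300 bases from 250 before to 50 after each RefSeq start (GRCm38.p6). A promoter was found for 33 members, and 8 of them held the motif, against 7.81% of 32851 promoters. All 8 lie in the chromosome 9 cluster; the promoters of Mmp8 and Mmp27 there did not hold it. The promoters of Mmp2, Mmp9, Mmp16, Mmp17, Mmp19, Adamts4, Adamts5, Adamts6, Adamts7, Adamts8, Adamts10, Adamts15, Adamts16 and Adamts19 were not searched. The promoters of Mmp13, the expressed gene, and of Mmp3, its nearly silent neighbour, are shown to compare their AP-1 motifs, which are in capitals; a match is a description of letters, not of binding.
Mmp13, chr9:7272264-7272563, plus strand: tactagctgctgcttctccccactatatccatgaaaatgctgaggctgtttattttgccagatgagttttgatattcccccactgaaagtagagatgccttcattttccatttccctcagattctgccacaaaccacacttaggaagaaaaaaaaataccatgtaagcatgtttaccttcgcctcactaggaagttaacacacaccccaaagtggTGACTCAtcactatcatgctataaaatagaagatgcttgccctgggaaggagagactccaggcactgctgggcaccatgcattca
Mmp3, chr9:7445572-7445871, plus strand: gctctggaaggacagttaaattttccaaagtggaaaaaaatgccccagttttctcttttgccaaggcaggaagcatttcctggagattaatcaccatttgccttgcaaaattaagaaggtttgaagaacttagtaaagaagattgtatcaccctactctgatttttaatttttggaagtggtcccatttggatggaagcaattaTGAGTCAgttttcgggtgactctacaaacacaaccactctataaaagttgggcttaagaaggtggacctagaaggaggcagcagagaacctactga
The motif starts at position -35 in Mmp13 and -46 in Mmp3, counted from the RefSeq start. The TATAAA letters of a TATA box were found on either strand for 11 of the 33 members, against 13.6% of all promoters. All of these except Mmp21 and Adamts1 lie in the chromosome 9 cluster. The letters TGTGGTT, bound by runt factors such as Runx2, were found for 3 of 33, against 5.27% of all promoters. These were Mmp13, Mmp27 and Mmp7, all in the cluster, and Mmp13 held the letters at position -119 on the minus strand. For each motif a member counted once if any of its promoters held the letters, while the background counts single promoters, so the shares are not strictly alike.

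The gelatinases Mmp2 and Mmp9 cut denatured collagen and the type IV collagen of basement membranes, and they lay on opposite sides. Mmp2 fell to 233 and 148 normalised reads in the deeper and shallower KO libraries, against 861 and 778 in the deeper and shallower WT libraries. No KO library reached a WT library, and the KO libraries differed from each other by less than from WT. The ratio of means was 0.232 (counting interval 0.208 to 0.260), a level 4.30-fold lower in KO. The authors' deposited table gives an adjusted p of 5.18e-06, and limma gave 0.0214 with Benjamini-Hochberg adjustment. The ratio stayed between 0.181 and 0.284 whichever library was left out.

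Mmp9 had 27.6 and 40.8 normalised reads in the deeper and shallower KO libraries, against 3.86 and 2.24 in the deeper and shallower WT libraries. Both KO libraries were above both WT libraries, on 71 reads in KO and 6 in WT. The ratio of 11.2 had a counting interval of 4.91 to 31.6 and rested on a mean over both genotypes of 18.6, just under the minimum of 20. Mmp9 rose at an adjusted p of 0.0206 in the authors' deposited table. Neutrophils and macrophages also make Mmp9, and their marker sums are those given above; the part of such cells in this value was not tested.

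Among the membrane-type MMPs, which act at the cell surface, Mmp14 differed by less than 2-fold and Mmp15, Mmp16 and Mmp17 were lower in KO. Mmp14 activates the proenzyme of Mmp2 in a complex with Timp2 and cuts fibrillar collagen itself. It had 5167 and 2840 normalised reads in the deeper and shallower KO libraries, against 4251 and 2587 in the deeper and shallower WT libraries. The libraries of the genotypes overlapped, the ratio was 1.17 (counting interval 1.13 to 1.21), and the adjusted p in the authors' deposited table was 1. The ratio was 0.831 when the deeper KO library was omitted and 1.55 when the deeper WT library was.

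Mmp16, a transmembrane MMP that like Mmp14 can activate the Mmp2 proenzyme, fell to 6.44 and 7.96 normalised reads in the deeper and shallower KO libraries, against 60.7 and 63.9 in the deeper and shallower WT libraries. The libraries of each genotype lay close together and the genotypes far apart, on 15 reads in KO and 120 in WT. The ratio was 0.116 (counting interval 0.0627 to 0.198), 8.66-fold lower in KO, with an adjusted p of 0.00179 in the authors' deposited table and 0.0267 by limma with Benjamini-Hochberg adjustment. Mmp15, another transmembrane MMP, had 15.6 and 14.9 in the KO libraries, against 57.8 and 47.1 in the WT libraries. Both KO libraries were below both WT libraries at a ratio of 0.291 (counting interval 0.189 to 0.437), but the adjusted p in the authors' deposited table was 0.145. Mmp17, which is held by a glycolipid anchor, had 10.1 and 9.95 in the KO libraries, against 37.6 and 26.9 in the WT libraries. Its ratio was 0.311 (counting interval 0.180 to 0.517) with an adjusted p of 0.367 in the authors' deposited table; omitting the deeper WT library gave 0.373 and the mean fell under the minimum, which ended the call. Mmp24 had 0 reads in KO and 2 in WT, and Mmp25 had 1 read in each.

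The remaining tested MMPs were Mmp11, Mmp19, Mmp23 and Mmp28. Mmp19, which cuts basement membrane proteins, had 92.9 and 56.7 normalised reads in the deeper and shallower KO libraries, against 423 and 111 in the deeper and shallower WT libraries. Both KO libraries were below both WT libraries, but the deeper WT library stood far above the other 3. The ratio was 0.280 (counting interval 0.233 to 0.335) with an adjusted p of 0.714 in the authors' deposited table, and it was 0.674 without the deeper WT library, which ended the call. Mmp11, a stromelysin that furin activates inside the cell, had 785 and 306 in the KO libraries, against 422 and 283 in the WT libraries. Its ratio of 1.55 (counting interval 1.41 to 1.70) turned to 0.870 when the deeper KO library was omitted and passed 2-fold, at 2.23, when the shallower one was. Mmp23 and Mmp28 had ratios of 0.963 and 1.09, with overlapping libraries. The ratio of Mmp28 was 0.415 when the deeper KO library was omitted and 2.78 when the deeper WT library was. Mmp21 had 0 reads in KO and 1 in WT.

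The ADAMTS proteases that cut aggrecan and versican, called hyalectanases, were lower in KO where they were called. Of the 7 listed, Adamts8, Adamts15 and Adamts20 had no reads, Adamts1, Adamts5 and Adamts9 were lower and Adamts4 was called in neither direction. Adamts1 fell to 342 and 784 normalised reads in the deeper and shallower KO libraries, against 1304 and 1826 in the deeper and shallower WT libraries. Both KO libraries were below both WT libraries, and in each genotype the deeper library was the lower one. The ratio was 0.360 (counting interval 0.336 to 0.385), 2.78-fold lower in KO, with an adjusted p of 0.0349 in the authors' deposited table and 0.0983 by limma with Benjamini-Hochberg adjustment. With the deeper KO library omitted the ratio was 0.501, just short of the size rule, and with the shallower one omitted it was 0.219.

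Adamts5, a major aggrecanase of mouse cartilage, had 209.7 and 651 normalised reads in the deeper and shallower KO libraries, against 659 and 1344 in the deeper and shallower WT libraries. The shallower KO library nearly met the deeper WT library, and each genotype's libraries were over 2-fold apart. The ratio was 0.429 (counting interval 0.396 to 0.466) with an adjusted p of 0.648 in the authors' deposited table. Omitting the deeper KO library gave 0.650 and omitting the shallower WT library gave 0.653, each of which ended the call; omitting the shallower KO library gave 0.209. Adamts9, which also clears versican during development, had 199 and 50.7 in the KO libraries, against 2049 and 154 in the WT libraries. The WT libraries were 13.3-fold apart and the deeper KO library lay above the shallower WT library, so the groups overlapped. The ratio of 0.113 (counting interval 0.0994 to 0.129) had an adjusted p of 0.804 in the authors' deposited table. It became 0.812 without the deeper WT library, which ended the call. Omitting a different library gave 0.0461 (deeper KO), 0.180 (shallower KO) or 0.0609 (shallower WT). Adamts4 had 227 and 118 in the KO libraries, against 177 and 74.0 in the WT libraries, and its ratio of 1.37 turned to 0.942 when the deeper KO library was omitted and passed 2-fold, at 2.34, when the deeper WT library was.

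The procollagen N-proteinases Adamts2, Adamts3 and Adamts14 remove the amino-terminal propeptide of fibrillar procollagens, and each lay higher in both KO libraries than in both WT libraries, as did 30.4% of all tested genes. Only Adamts14 of the 3 passed a test or the 2-fold rule. Adamts14 rose to 646 and 826 normalised reads in the deeper and shallower KO libraries, against 209 and 302 in the deeper and shallower WT libraries. The lowest KO library was more than 2-fold above the highest WT library. The ratio was 2.88 (counting interval 2.60 to 3.20), with an adjusted p of 0.00190 in the authors' deposited table and 0.0391 by limma with Benjamini-Hochberg adjustment, and it stayed between 2.44 and 3.52 whichever library was left out. Adamts2, whose loss causes a skin fragility disorder in several mammals, had 1654 and 1351 in the KO libraries, against 1256 and 969.7 in the WT libraries. Its ratio of 1.35 (counting interval 1.28 to 1.43) was under 2-fold, with an adjusted p of 0.779 in the authors' deposited table. Adamts3 had 192 and 161 in the KO libraries, against 131 and 139 in the WT libraries, a ratio of 1.31 (counting interval 1.11 to 1.54) with an adjusted p of 0.942 in the authors' deposited table.

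Of the other ADAMTS genes, Adamts10, whose protein binds fibrillin microfibrils, fell to 254 and 180 normalised reads in the deeper and shallower KO libraries, against 566 and 395 in the deeper and shallower WT libraries. Both KO libraries were below both WT libraries. The ratio was 0.449 in the deeper pair and 0.456 in the shallower pair, but these pairs are set by depth rank only. Over the libraries left out it ranged from 0.375 to 0.550. The ratio of means was 0.452 (counting interval 0.403 to 0.506), with an adjusted p of 0.0529 in the authors' deposited table and 0.0854 by limma with Benjamini-Hochberg adjustment. It passed the 2-fold threshold by little and missed it when the shallower KO library (0.529) or the deeper WT library (0.550) was omitted. Adamts6, the closest relative of Adamts10, had 247 and 159 in the KO libraries, against 113 and 303 in the WT libraries, which overlapped at a ratio of 0.979. Adamts7 and Adamts12 both cut cartilage oligomeric matrix protein (Comp). Adamts7 had 16.6 and 13.9 in the KO libraries, against 52.1 and 19.1 in the WT libraries, a ratio of 0.429 (counting interval 0.273 to 0.659) with an adjusted p of 0.739 in the authors' deposited table; omitting the deeper WT library gave 0.80 and ended the call. Adamts12 overlapped between the genotypes at a ratio of 1.09. Adamts16 had 7 reads in KO and 36 in WT, where the shallower library had 35.9 normalised reads and the deeper had 3.86. Adamts17 had 1 read in KO and 8 in WT, Adamts18 had 0 and 3, and Adamts13, which cuts von Willebrand factor, had 2 and 0. Adamts19 had no reads.

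None of the 4 tested inhibitors differed by 2-fold between the means of the lines, and each had an adjusted p of 1 in the authors' deposited table. Timp1, a secreted inhibitor of most MMPs, had 742 and 2282 normalised reads in the deeper and shallower KO libraries, against 1641 and 2805 in the deeper and shallower WT libraries. These ranges overlapped, and the ratio of 0.680 (counting interval 0.649 to 0.713) passed the 2-fold rule, at 0.334, when the shallower KO library was omitted and turned to 1.03 when the deeper one was. Timp2, which both inhibits Mmp2 and helps Mmp14 to activate it, had 5656 and 5221 in the KO libraries, against 7009.7 and 4888 in the WT libraries. The KO libraries fell between the WT libraries, at a ratio of 0.914 (counting interval 0.891 to 0.938). Timp3, the matrix-bound inhibitor that also blocks aggrecanases, had 7229 and 6872 in the KO libraries, against 6158 and 13226 in the WT libraries. Its KO libraries likewise lay between the WT libraries, and the ratio of 0.727 (counting interval 0.712 to 0.743) turned to 1.15 without the shallower WT library. Reck, a surface protein that restrains Mmp2, Mmp9 and Mmp14, had 210.6 and 192 in the KO libraries, against 205 and 155 in the WT libraries, at a ratio of 1.12 (counting interval 0.969 to 1.29) that includes 1. Timp4 had no reads.

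**Figure D2:**
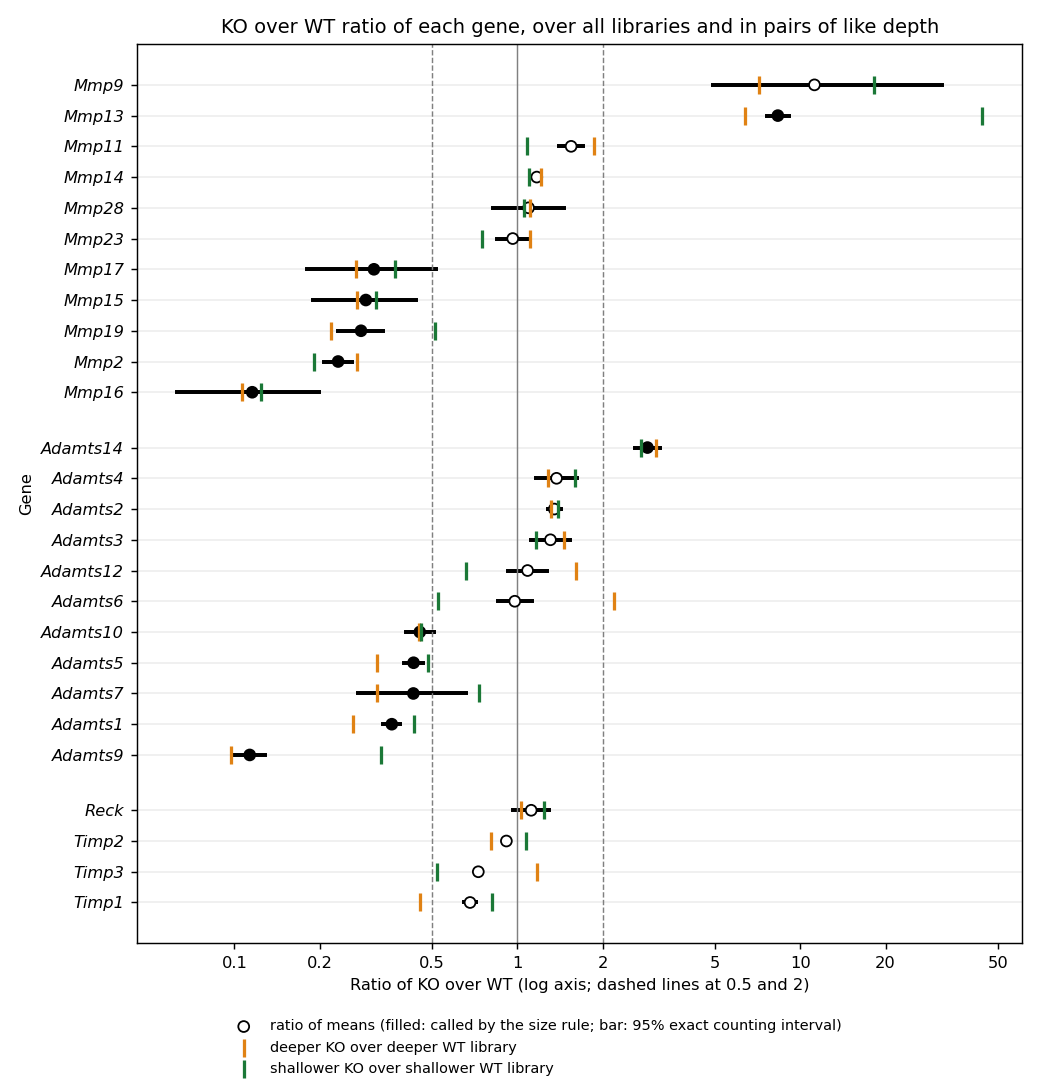
Ratio of KO over WT means (log axis) for the 25 tested members and Mmp9, with 95% counting intervals as bars and the ratios of the deeper and of the shallower library pair as small symbols; Mmp9 is open because its mean is under the minimum. Pair symbols lie close together for Mmp16 (0.106 and 0.125) and Adamts10 (0.449 and 0.456) and far apart for Mmp13 (6.39 and 43.9). The pairs are set by depth rank only.

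Libraries of the same genotype often differed in these genes. Between the KO libraries, 8 of the 25 tested members (32.0%) were at least 2-fold apart, against 8.80% of all tested genes. Between the WT libraries it was 9 (36%), against 9.05%. Adamts5, Adamts9, Mmp13 and Mmp28 were 2-fold apart in both genotypes. In both genotypes the deeper library was the higher one for 16 members (64.0%, background 38.4%), including Mmp13, Mmp14, Mmp19 and Adamts9. It was the lower one in both for 5 (20%, background 35.4%), namely Timp1, Adamts1, Adamts5, Adamts14 and Mmp16. The calls of Mmp2, Mmp13, Mmp15, Mmp16 and Adamts14 held whichever library was left out. For Mmp15 and Mmp16 the direction was fixed, as they reached the minimum in WT alone and had to lie lower in KO once tested.

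Levels of different genes were compared per kilobase of the longest GENCODE M21 transcript. On this scale Timp1, Timp3 and Timp2 had the highest means in both lines. The means were 1712 normalised reads per kilobase in KO and 2517 in WT for Timp1. They were 1493 in KO and 2052 in WT for Timp3, and 1466 in KO and 1604 in WT for Timp2. Their library values overlapped between the genotypes, and the lead did not hold in every library. In the deeper KO library Mmp14 (1596) lay above Timp3 (1531), Timp2 (1525) and Timp1 (841). In the deeper WT library Mmp14 (1313) lay above Timp3 (1304). Mmp14 was the leading protease in both lines, at means of 1236 in KO and 1056 in WT. The protease with the next highest mean was a different gene in each line. It was Mmp13 in KO, at 845 against 102 in WT, and Adamts1 in WT, at 115 in KO against 320 in WT. By means Mmp11 followed in KO, at 238 against 154 in WT, and Mmp2 followed in WT, at 61.9 in KO against 266 in WT. These ranks differed between libraries. In the deeper WT library Mmp2 (280) lay above Adamts1 (267). In the shallower KO library Mmp11 (134) lay below Adamts2 (186), Adamts1 (161) and Adamts14 (159). Summed over the class, MMPs had 3536 and 1666 per kilobase in the deeper and shallower KO libraries, against 2350 and 1388 in the deeper and shallower WT libraries. Mmp14 was the largest part of each sum, at 1596 and 877 in the KO libraries, against 1313 and 799 in the WT libraries. Mmp13 came next in the KO libraries, at 1230 and 461, against 193 and 10.5 in the WT libraries. Mmp2 came next in the WT libraries, at 280 and 253. ADAMTS genes summed to 690 and 722 per kilobase in the KO libraries, against 1050 and 927 in the WT libraries, with no overlap. A large part of that gap came from Adamts1, at 70.1 and 161 in the KO libraries, against 267 and 374 in the WT libraries. Adamts9 gave 24.8 and 6.33 in the KO libraries, against 256 and 19.2 in the WT libraries. The class did not move together, as Adamts2, Adamts3 and Adamts14 were higher in both KO libraries than in both WT libraries.

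TIMPs summed to 3897 and 5447 per kilobase in the deeper and shallower KO libraries, against 5052 and 7295 in the deeper and shallower WT libraries. The summed level of TIMPs over that of MMPs was 1.1 and 3.27 in the deeper and shallower KO libraries, against 2.15 and 5.26 in the deeper and shallower WT libraries. It was lower in KO within each pair of like rank, yet the shallower KO library lay above the deeper WT library, so the genotypes overlapped.

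**Figure D3:**
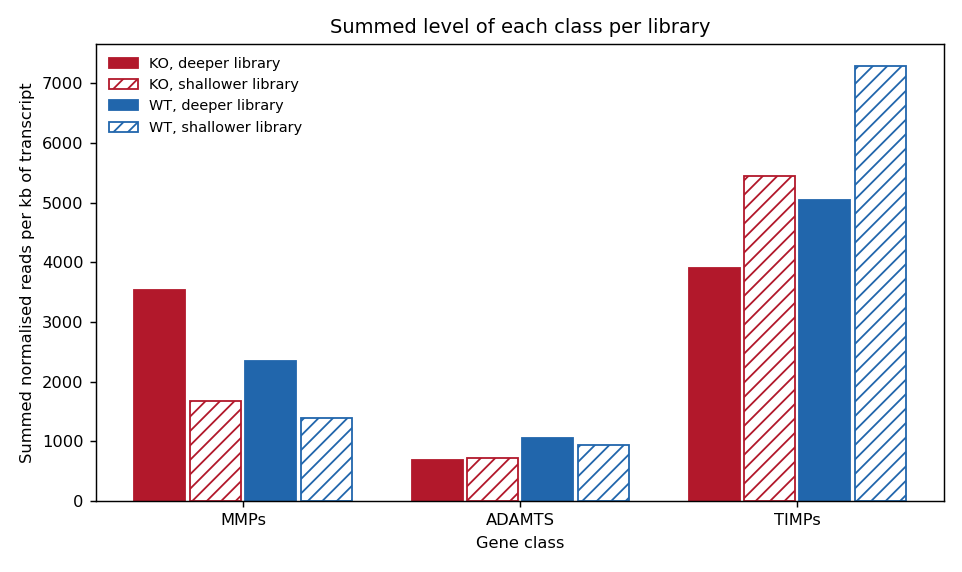
Summed normalised reads per kilobase of MMPs, ADAMTS and TIMPs in each library, as bars from 0 with the KO libraries left of the WT libraries. The ADAMTS sums of both KO libraries (690 and 722) are below both WT sums (1050 and 927), while the MMP and TIMP sums overlap. Adamts1 alone gave 70.1 and 161 of the KO sums of ADAMTS and 267 and 374 of the WT sums.

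MicroRNAs depend on Dicer, and several members are published microRNA targets in other systems, such as Reck and Timp3 for miR-21 and Mmp2 for miR-29. A microRNA recognises its targets mainly through its seed, bases 2 to 8, and these mature sequences from RefSeq (GRCm38.p6) are shown with the seed in capitals because their sites recur in the members.
miR-29a-3p: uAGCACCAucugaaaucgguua
miR-21a-5p: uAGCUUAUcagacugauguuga
let-7a-5p: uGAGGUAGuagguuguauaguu
miR-181a-5p: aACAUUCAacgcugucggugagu
Sites of 7 bases complementary to the seed were searched for 10 families in the longest GENCODE M21 3' UTR, which 11323 of the 11710 tested genes (96.7%) had. A site of at least 1 family was found in 19 of the 25 tested members, and 6 had none. The median 3' UTR was 1724 bases long in the members and 1210.0 over all tested genes, and the shares below are not matched for that length. MicroRNA levels were not measured here, and a site in a UTR is a description of letters.

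The miR-29 site was in 7 tested members (28.0%), against 16.2% of all tested genes. A 27-base window per gene is shown for the 4 of them called by the size rule, and the first window of Adamts2, which has 4 sites, with the site in capitals.
Mmp13: gagtaacactTGGTGCTtactgatgtg
Mmp2: tgggctgcccTGGTGCTccactcttct
Adamts9: tgtgctgcctTGGTGCTaatattatat
Adamts10: tctaagaggaTGGTGCTgtaaggcaga
Adamts2: tttcaaaaccTGGTGCTcaaaatgtgt
These members went both ways: Mmp13 was higher in KO, Mmp2, Adamts9 and Adamts10 were lower, and Adamts2, Adamts6 and Adamts12 were called in neither direction, with ratios from 0.113 to 8.33. Adamts12 had 4 sites too, at a ratio of 1.09.

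The miR-21 site was in 4 tested members (16%), against 8.02% of all tested genes, and 3 of these are inhibitors. Their windows are shown because the site is the same in each while the flanks differ.
Reck: acagtttgaaATAAGCTattaatgtaa
Timp2: gtcttaaaaaATAAGCTgtcccaagga
Timp3: tgagctttcaATAAGCTatagctttgt
Adamts6: atgcggaaagATAAGCTggcttagtaa
Every gene of these 4 was called in neither direction, with ratios from 0.727 for Timp3 to 1.12 for Reck.

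The let-7 site was in 4 members (16%, against 10.7% of all tested genes): Adamts5 and Adamts10 were lower in KO, and Adamts12 and Mmp14 were called in neither direction. The miR-181 site was in 8 members (32.0%, against 19.0%), of which Adamts1, Adamts5, Adamts9 and Mmp16 were lower in KO. The miR-15/16 site was in 7 (28.0%, against 25.4%), of which Adamts5, Mmp2, Mmp17 and Mmp19 were lower. These 4 of 8 and 4 of 7 stand beside the 10 of 25 tested members that were lower whatever their sites. Adamts14, which rose, held no site of any of the 10 families. The shares of the other families were on the low side of those over all tested genes, and no family was tested. Sites of miR-17 were in 3 members (12%, against 15.1%), of miR-30 in 3 (12%, against 16.7%), of the miR-221 family in 2 (8%, against 11.2%) and of miR-27 in 2 (8%, against 17.7%), and no member held a miR-199a-3p site (background 8.90%).

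**Figure D4:**
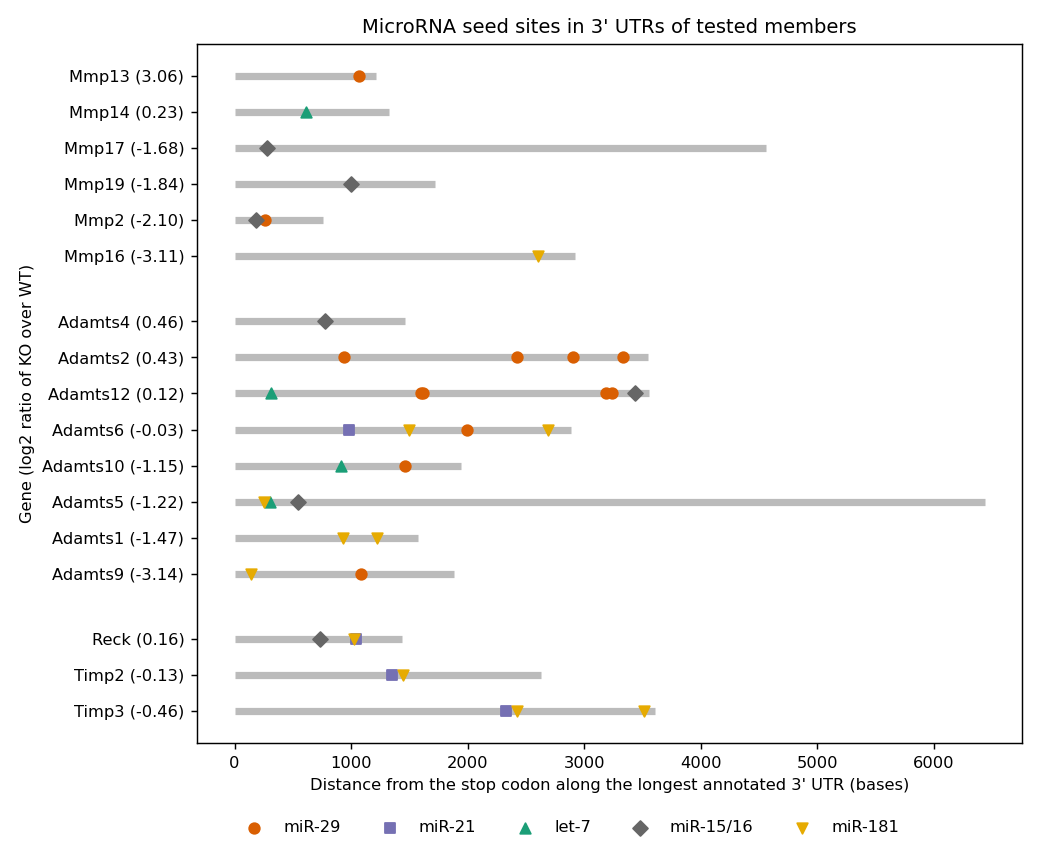
Positions of miR-29, miR-21, let-7, miR-15/16 and miR-181 seed sites along the longest 3' UTR of each tested member (distance from the start of the UTR in bases), with the log2 ratio of KO over WT beside each gene. The miR-29 sites fall in genes from the lowest ratios (Adamts9, 0.113) to the highest (Mmp13, 8.33). The miR-21 sites fall in genes called in neither direction, with ratios from 0.727 (Timp3) to 1.12 (Reck).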

How the data were processed

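PolyA RNA of 1 labelled sample per genotype was analysed from the table of WT and KO that the authors deposited. TopHat 1.4.0, DESeq 1.10.1 and the build mm9 are named in the submitters' processing notes; the read counter is not given in the sources used here. The authors deposited a signal per gene (mean reads after division by size factors), a fold (ratio of KO over WT), its log2 and p-values, per the file headers; p-values were copied. Each genotype mean has exactly 1 solution as a sum over 2 libraries (100% of the 16350 KO and 16386 WT genes above 0), which gave the reads used here. Ratios, exact intervals (SciPy 1.17.1) and limma 3.58.1 in R 4.3.3, on log2(normalised reads + 1), were computed from these; code was tested on simulated data. Intervals cover counting error only, as the files hold no molecular identifiers. Of the symbols, 5924 had no reads. The design had assumed 1 library per genotype and was kept, so limma is an alternative. Every tested member is accounted for, and called ones, the TIMPs, Reck, Mmp2 and Mmp14 are given in full; pathway genes are named when called by both the size rule and the authors. Members and lists were chosen with earlier results of these data known. For seed sites, 22799 of 23227 symbols (98.2%) matched GENCODE M21 (GRCm38), used for sequence and length only. Alternatives for the pathway list were chosen after seeing the data.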

Additional observations from a re-analysis of the deposited data

How the results depend on the processing

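Reads per library were recovered from means, libraries of a genotype may be technical, and each genotype is 1 clone, which limits what any p covers. Scaling by total reads called the same 12 members. Over the whole table the 2-fold rule called 1044 genes higher and 1002 lower; 1.5-fold gave 4122 (2030 and 2092), 3-fold 1083 (551 and 532), a mean of at least 100 gave 622 lower and no minimum 1571 lower. Limma with Benjamini-Hochberg adjustment called 1025 (540 and 485) with pseudocount 1 and 1041 (541 and 500) with pseudocount 5. Of the 12 members, 3-fold kept 7 (1 higher, 6 lower), a mean of at least 100 kept 6 lower, and limma with either pseudocount kept 3 (1 higher, 2 lower). Leaving out each library in turn gave 9 to 13 members, 2 to 4 higher and 5 to 10 lower; without the deeper WT library it was 4 higher and 5 lower. Of the pathway genes, 1.5-fold called 20 (11 higher), no minimum called 12 lower, and leaving out a library called 6 to 10 higher. The median log2 ratio of members ranged from -0.48 to 0.04.

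Of the members called in neither direction, those named below turned round in some of these settings. Adamts2 and Adamts3 did not when a library was left out, at 1.20 to 1.55 and 1.19 to 1.42. By total reads the ratio was 1.04 for Adamts6 and 1.00 for Mmp23. By limma Adamts6 was 1.07 with either pseudocount. In the deeper pair Adamts6 was 2.19, Mmp23 1.11 and Timp3 1.17, and in the shallower pair Adamts12 was 0.657 and Timp2 1.07. Over the libraries left out the ratio ranged from 0.727 to 1.45 for Adamts12, 0.942 to 2.34 for Adamts4, 0.672 to 1.8 for Adamts6, 0.870 to 2.23 for Mmp11, 0.831 to 1.55 for Mmp14, 0.607 to 1.32 for Mmp23, 0.415 to 2.78 for Mmp28, 0.981 to 1.30 for Reck, 0.334 to 1.03 for Timp1, 0.776 to 1.11 for Timp2 and 0.533 to 1.15 for Timp3. The cause was not tested. No paired analysis was possible because the labels list 1 sample per genotype, so the genotypes share fewer than 2 replicate numbers. The depth ranks of the recovered libraries are no such numbers, and limma was fitted without a term for them. Yet the deeper library was the higher one in both genotypes for 38.4% of all tested genes. It was the lower one in both for 35.4%.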

Other observations

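Genes that work beside the MMPs and ADAMTS proteases differed in both directions. A list of 48 genes of extracellular proteolysis (plasminogen activation, proprotein convertases, ADAM sheddases, ADAMTS-like proteins, tolloid proteinases, clearance receptors, cysteine cathepsins, and proteoglycan and Comp substrates) had 35 tested genes. By the size rule 6 were higher in KO (background 8.92% of tested genes) and 7 lower (background 8.56%). Of these, 8 also passed an adjusted p of 0.1 in the authors' deposited table, where 4 rose (background 5.56%) and 4 fell (background 5.34%). Adam19, Comp, Ctsk and Serpine2, 4 of the 7 lower genes, reached the minimum in WT alone and so had to lie lower in KO once tested. Plat, the tissue plasminogen activator, rose to 669.6 and 647 normalised reads in the deeper and shallower KO libraries, against 171 and 113 in the deeper and shallower WT libraries, a ratio of 4.64 (counting interval 4.07 to 5.29). Its adjusted p in the authors' deposited table was 3.40e-06. Serpine2, an inhibitor of plasminogen activators and thrombin, fell to 11.0 and 12.9 in the KO libraries, against 387 and 151 in the WT libraries. Its ratio of 0.0446 became 0.0792 without the deeper WT library, and the adjusted p in the authors' deposited table was 0.0356. For Plat and Serpine2 the KO libraries lay close together and did not overlap with WT.

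Adam19, a membrane sheddase, fell to 1.84 and 0.995 normalised reads in the deeper and shallower KO libraries, against 216 and 246 in the deeper and shallower WT libraries. That is 3 reads in KO, a ratio of 0.00614 (counting interval 0.00126 to 0.0181), with an adjusted p of 3.29e-20 in the authors' deposited table. Adam8, a sheddase best known from myeloid cells, rose to 126 and 288 in the KO libraries, against 19.3 and 29.1 in the WT libraries, with an adjusted p of 0.0890 in the authors' deposited table. Its ratio was 8.54 and was 5.20 without the shallower KO library; the part of myeloid cells was not tested. The cathepsins split. Ctsl rose to 9031 and 8137 in the KO libraries, against 3493 and 3872 in the WT libraries (authors' deposited table, adjusted p 0.00988). Ctsk, the collagen-cutting cathepsin of osteoclasts and fibroblasts, fell to 16.6 and 7.96 in the KO libraries, against 66.5 and 79.6 in the WT libraries (authors' deposited table, adjusted p 0.00567). Its ratio of 0.168 was 0.109 without the deeper KO library.

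Procollagen is trimmed at its other end by Bmp1, the tolloid C-proteinase. Bmp1 fell to 1309.8 and 1264 normalised reads in the KO libraries, against 2794 and 2664 in the WT libraries, at a ratio of 0.472 (counting interval 0.450 to 0.494) and an adjusted p of 0.0361 in the authors' deposited table. Vcan encodes versican, a substrate of Adamts1, Adamts4, Adamts5 and Adamts9. It rose to 9347 and 6579 in the KO libraries, against 4102 and 1400.25 in the WT libraries, with an adjusted p of 0.0792 in the authors' deposited table. Its ratio of 2.89 was 1.94 without the shallower WT library, under the 2-fold threshold, and 5.69 without the deeper WT library. Acan, which encodes aggrecan, had 0 reads in KO and a mean of 18.6 normalised reads in WT, under the minimum of 20, and fell in the authors' deposited table at an adjusted p of 0.0145.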
